A study of Gallus gallus with 12 samples.

Results

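Splicing factor and hnRNP genes were taken by name from the probe annotation of a chicken GeneChip and followed across 6 regions of the embryonic brain, the midbrain (m) and the hindbrain segments called rhombomeres (r1 to r5). A gene was a member if its symbol began with SRSF, HNRNP, SNRP, SF3A, SF3B, U2AF, PRPF or LSM followed by a number or letter. This gave 64 of the 13009 genes that the annotation names singly, each represented by its probe set with the highest mean signal. All 64 passed the filter on dim probe sets, and 63 of them encode splicing or RNA processing proteins. The remaining one, LSMEM2, is a transmembrane protein that shares only the first letters of its name, and every count of called members was the same without it.

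The tissue came from chick embryos of stage HH10 by the labels, whose growth protocol allows HH10 to 11. The paper's main text gives the later of these stages. Neural tubes were freed from ectoderm and mesoderm with Dispase at 1 mg/ml, for 15 min by the labels and for a shorter time by the paper, and were then cut into regions at the visible boundaries. Each region was represented by pools from 2 collections, denoted set 1 and set 2, which gave 12 arrays, with r3, r4, r5, m, r1 and r2 on 2 arrays each. No group carried a treatment or a mutation, and the comparisons ask whether the region changes the amount of a transcript.

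Splicing removes introns from pre-mRNA. It is carried out by the spliceosome, which is built from the U1, U2, U4, U5 and U6 small nuclear ribonucleoproteins (snRNPs), each an RNA held in a ring of Sm or LSM proteins with further proteins of its own. SR proteins mostly bind exons and help the spliceosome to recognise them, while hnRNP proteins coat the transcript and often oppose that recognition, so that the balance of both classes sets which exons are kept. Every cell needs the core machinery, and neural tissue is known for its wide use of alternative exons.

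Values are MAS5 signals, an intensity on a linear scale, scaled so that all arrays share the same median, and differences are given on the log2 scale. They were tested with limma over all 21731 probe sets kept, with p-values adjusted by the Benjamini-Hochberg method and called at an adjusted p under 0.05. Signals of different probe sets depend on their probes, so levels are compared only within a probe set. With n = 2 per region, the number of arrays limits the precision, and p-values measure the spread between pools. Less RNA per cell and fewer cells of a type cannot be told apart in pooled tissue.

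The libraries were not alike. Region markers other than GBX2 were highest where the labels put them, with OTX2 at 800 to 899 in m, HOXB1 at 225 to 367 in r4 and HOXA3 at 503 to 512 in r5. GBX2, taken as a marker of the mid-hindbrain boundary and r1, had 2099 and 2001 in r3, above the 1175 and 1350 of r1. SOX2, which marks the neural tube, was at 0.252 to 16.1 on all arrays, while NES and CDH2 were measured. On each array, probes near the 3′ end of actin, GAPDH and EF1a were set against probes near the 5′ end. The mean log2 ratio of the 3 controls stood at 6.12 and 7.12 for the r3 arrays, at 2.08 to 4.05 for those of r4 and r5, and at 1.28 to 2.07 for those of m, r1 and r2. Median signals before scaling ran in the opposite order (r3 2.27 and 4.35, r4 and r5 4.19 to 4.89, m with r1 and r2 5.01 to 9.67). Of 8 marker lists for cell types, 4 had summed signals on both r3 arrays outside the range of all others. The 5 neural tube genes had the higher sums on the r3 arrays, at 1936 to 2368, against 1385 to 1774 for r4 with r5 and 1354 to 1622 for the rostral regions (m, r1, r2). Sums were lower on the r3 arrays for neurons (4 of 7 genes kept, r3 264 to 392, r4 and r5 603 to 988, rostral 534 to 842). The same held for neural crest (6 of 6 kept, r3 256 to 286, r4 and r5 750.3 to 1979, rostral 358 to 927) and notochord (2 of 2 kept, r3 10.4 to 18.5, r4 and r5 36.1 to 65.0, rostral 37.5 to 148). Single genes did not all follow their sum. ETS1 of the neural crest had 134 and 94.8 in r3, against 95.4 to 130 elsewhere. STMN2 of the neurons had 12.8 and 25.2 in r3, above the 4.33 to 6.82 of m and r1. SOX3 of the neural tube had 43.9 and 74.9 in r3, below the 128 to 220 of m, r1 and r2. Lists for mesoderm, blood, endothelium and surface ectoderm overlapped. Within the mesoderm list, however, TWIST1 had 127 and 60.2 in r3, above the 1.15 to 29.85 of the other arrays. TCF15 of the same list went the other way, with 11.6 and 11.3 in r3, against 15.7 to 26.8 elsewhere. The part of the 3′ to 5′ ratio and of these other tissues in the results on the members was not tested, except where a value is given.

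Outside r3, most members differed little along the axis. Between the highest and the lowest of the 5 region means of m, r1, r2, r4 and r5, 41 of the 64 members differed by under 1.5-fold and 56 by under 2-fold, with a median of 1.41-fold (64.1% under 1.5-fold, beside 37.1% of all genes, whose median was 1.69-fold). The members were also brighter (median signal 501, against 51.7 over all genes), and the part of this in the narrower range was not tested. The F test over these 5 regions called 5 members (7.81%), beside 5.82% of the 9940 genes that had a kept probe set when each gene is read by its brightest one. Percentages of all genes below are over these 9940. The 5 members called were the hnRNP genes HNRNPAB and HNRNPDL, the Sm gene SNRPE, LSM4 and PRPF19. The call is fragile at this number of arrays: none of the 5 was called when any of 7 single arrays was left out (m set 1, m set 2, r1 set 1, r2 set 1, r2 set 2, r5 set 1 or r5 set 2), PRPF19 alone was called without r1 set 2 or r4 set 1, HNRNPDL and SNRPE lost their calls with the set number as a block, and 3 were called without r4 set 2. Without both r3 arrays, whose pools differ most and widen the shared estimate of spread, 15 members were called, beside 22.7% of all genes in that fit. Of these regions r4 held the highest mean for 29 members and r2 the lowest for 21, in the median-scaled data. Shares over all genes are not given for these 2 counts, so they do not set the members apart.

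**Figure D1:**
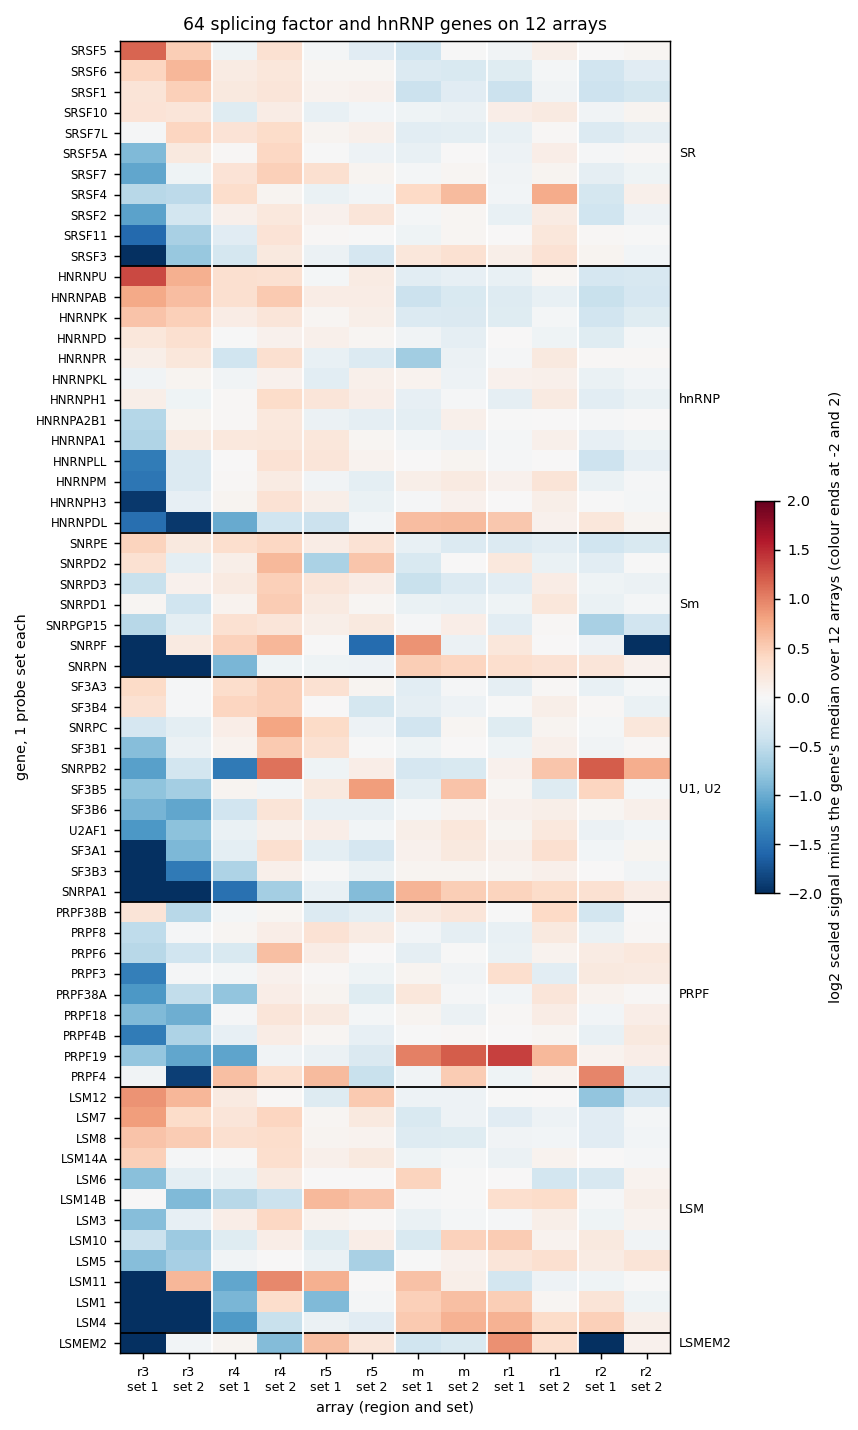
Scaled signal of the 64 members (rows, grouped by role and ordered within a group by their difference in r3) on the 12 arrays (columns), as log2 signal minus the median of the gene over the 12 arrays. The r3 columns hold both strong reds (HNRNPU, SRSF5) and the strongest blues (SNRPA1, LSM4, SNRPN), and r3 set 1 is further from the other regions than r3 set 2 for most of the blue rows. PRPF19 is also strongly red in m and r1.

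PRPF19, a ubiquitin ligase at the centre of the complex that activates the spliceosome, had the largest F over these 5 regions. Its signal was 85.8 and 170.1 in r4 and 166 and 147 in r5, against 361 and 414 in m, 463 and 281 in r1 and 189 and 196 in r2. Both m and both r1 arrays lay above the others, and r2 lay just above r4 and r5 without touching them. Its second kept probe set, with signals of only 4.68 to 43.6 in these regions, followed the same order of m and r1 over the rest. Measured by Pearson's r of log2 signal over the 12 arrays, which share their scaling and quality, the genes whose pattern was most like that of PRPF19 were LANCL2 (0.963), SLC7A5 (0.958), DNTTIP1 (0.957), PYGL (0.952) and PIP5K1B (0.950).

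When r4 and r5 were set against m, r1 and r2, 6 members were higher (9.38%), beside 6.43% of all genes, and 3 were lower (4.69%), beside 7.89%. The median log2 fold change of the members was 0.10, against −0.08 over all genes, and 45 members lay above that median. After quantile normalisation 34 members lay above the median gene and 30 below it. The part of the members' higher signal in this lean was not tested. All 4 arrays of r4 and r5 were above the 6 of m, r1 and r2 for 9 members, beside 8.04% of all genes, and below them for 5, beside 9.56%. The split of calls depends on the scaling, with 4 higher and 5 lower after quantile normalisation and 0 higher and 16 lower without scaling, where the median of all genes was −0.80. Shares over all genes are not given for these counts, so they do not set the members apart. Relative to the median gene, the 3 lower members stayed below it under each of these 3 scalings, and the 6 higher ones above it except SRSF1 after quantile normalisation, at −0.02. HNRNPAB, SNRPE and the 3 lower members kept their calls after quantile normalisation, while HNRNPK, SRSF1, SRSF6 and SNRPGP15 lost theirs.

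Among the genes higher in r4 and r5 were a pair of hnRNP genes. HNRNPAB, an RNA-binding protein of transcripts in the nucleus and in transport, had signals of 2061 and 2359 in r4 and 1826 and 1829 in r5, against 1220 and 1334 in m, 1376 and 1483 in r1 and 1207 and 1301 in r2. No r4 or r5 array overlapped the rostral ones, and the log2 fold change was 0.61 ± 0.10 (SE; limma adjusted p = 0.00322), while without scaling its sign turned to −0.12. HNRNPK, which binds C-rich stretches of RNA and DNA, had 1230 and 1304 in r4 and 1135 and 1193 in r5, against 913 and 905 in m, 937 and 1077 in r1 and 846 and 933 in r2. The groups did not overlap, but the difference was small, at 0.38 ± 0.10 (limma adjusted p = 0.0301), and turned to −0.34 without scaling.

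The Sm gene SNRPE, a subunit of the ring carried by U1, U2, U4 and U5, had signals of 1615 and 1712 in r4 and 1427 and 1565 in r5, against 1155 and 1057 in m, 1061 and 1110 in r1 and 970.3 and 1045 in r2. The lowest array of r4 and r5 was above the highest of m, r1 and r2, with a log2 fold change of 0.57 ± 0.10 (limma adjusted p = 0.00552) that was −0.16 without scaling. A second ring subunit, named SNRPGP15 here and listed in RefSeq with the synonym SNRPG, had 2280 and 2183 in r4 and 1999 and 2114 in r5, against 1813 and 2022 in m, 1600 and 1893 in r1 and 1182 and 1419 in r2. Here r5 set 1 fell below m set 2, r2 was the lowest region, and the log2 fold change of 0.40 ± 0.12 (limma adjusted p = 0.0447) was −0.33 without scaling. One of its 3 other kept probe sets was called lower, at −2.47, with a signal of 0.652 to 20.9 over the 12 arrays.

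The 2 SR genes called were SRSF1 and SRSF6, which both bind exonic enhancers. SRSF1, the founding SR protein, had signals of 3199 and 3314 in r4 and 2961 and 2975 in r5, against 2078 and 2394 in m, 2080 and 2661 in r1 and 2097 and 2190 in r2. SRSF6 had 2057 and 2155 in r4 and 1892 and 1876 in r5, against 1508 and 1486 in m, 1549 and 1789 in r1 and 1409 and 1562 in r2. Both genes were higher on each r4 and r5 array than on any array of m, r1 or r2, at 0.47 ± 0.11 (limma adjusted p = 0.0176) for SRSF1 and 0.37 ± 0.10 (limma adjusted p = 0.0376) for SRSF6, with signs that turned without scaling, to −0.25 and −0.36, while after quantile normalisation neither was called. The second kept probe set of SRSF6 differed by 0.33 and was not called.

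The genes lower in r4 and r5 were PRPF19, LSM4 and HNRNPDL, and none of them changed sign under another scaling. LSM4, part of both the nuclear ring on U6 and the cytoplasmic ring that starts mRNA decay, had signals of 127 and 205 in r4 and 259.5 and 240.3 in r5, against 403 and 452 in m, 453 and 361 in r1 and 391 and 303 in r2. HNRNPDL, a relative of the AU-rich element binding protein HNRNPD, had 272 and 414 in r4 and 402 and 524 in r5, against 835 and 842 in m, 795 and 577 in r1 and 637 and 566 in r2. In both genes m was the highest region and the arrays of r4 and r5 lay below all those of m, r1 and r2. The log2 fold changes were −1.12 ± 0.20 for PRPF19 (limma adjusted p = 0.00512), −0.96 ± 0.17 for LSM4 (limma adjusted p = 0.00466) and −0.83 ± 0.16 for HNRNPDL (limma adjusted p = 0.00791).

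**Figure D2:**
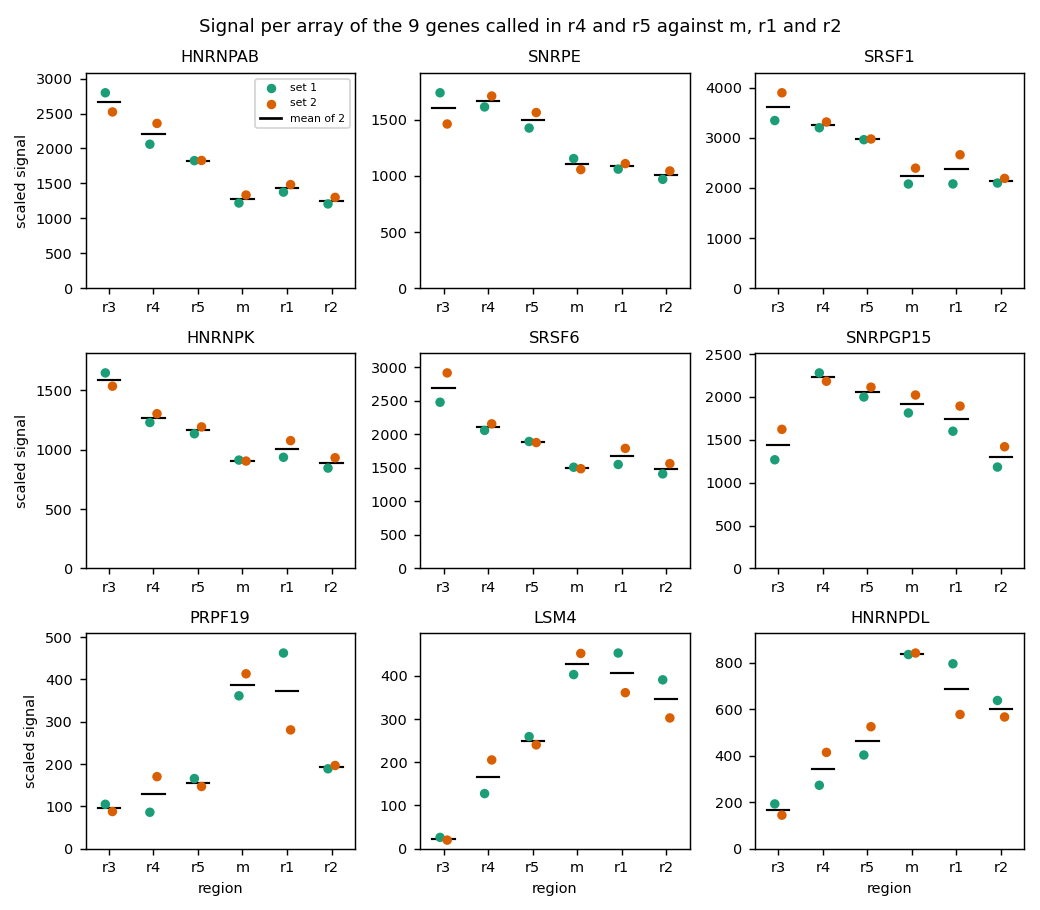
Scaled signal (vertical axis, linear, from 0) of the 9 members called in r4 and r5 against m, r1 and r2, by region, with 1 point per array and a bar at the mean of the 2. The first 6 genes are higher and the last 3 lower in r4 and r5 under median scaling. For the first 6 the sign turns without scaling. It stays positive after quantile normalisation, where SRSF1 is level (0.003) and, of the 6, only HNRNPAB and SNRPE keep their calls.

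These 9 calls differed in how far they rested on single arrays. HNRNPAB, SNRPE, PRPF19, LSM4 and HNRNPDL were called whichever array was left out, whereas HNRNPK lost its call in 9 of the 12 omissions, SRSF1 in 6, and SRSF6 and SNRPGP15 in 10 each. With the mean over the kept probe sets of a gene, HNRNPAB (0.29, limma adjusted p = 0.131) and SNRPE (0.26, limma adjusted p = 0.289) lost their calls, as did SRSF6 (0.35, limma adjusted p = 0.0636), and SNRPGP15 turned to −0.59. The 3′ to 5′ ratio was higher in r4 and r5 than in m, r1 and r2, with 1 array on the border: r5 set 2 had a mean log2 ratio of 2.08, next to the 2.07 of r1 set 2. With this ratio as a covariate, limma called 0 members in this contrast. Of the 9 fold changes 8 stayed within 1.5 times, HNRNPDL moved to −0.48, and the median standard error was 0.254 against 0.109 without the covariate.

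Without both r3 arrays the contrast of r4 and r5 called 13 members higher, beside 13.1% of all genes, and 6 lower, beside 19.1%. The fold changes are the same in both fits, and what changes is the spread. The 7 additional higher members were HNRNPU (0.38, limma adjusted p = 0.00566), SF3A3 (0.39, limma adjusted p = 0.00748), SNRPD3 (0.43, limma adjusted p = 0.0066), LSM7 (0.39), LSM8 (0.35), SRSF7 (0.33) and SRSF7L (0.37). Most of these signs depended on the probe set. The lowest kept probe set was at −0.83 for SF3A3, −0.22 for SNRPD3, −0.23 for LSM7, −0.07 for LSM8 and −1.11 for SRSF7L, but at 0.03 for HNRNPU. The additional lower members were SNRPA1 (−1.20, limma adjusted p = 0.000163, but 0.19 by another kept probe set), SNRPN (−0.61, limma adjusted p = 0.00408) and LSM1 (−0.67, limma adjusted p = 0.0459). SNRPA1, a structural protein of the U2 snRNP, had 131 and 230.1 in r4 and 334 and 201 in r5, against 592 and 518 in m, 499 and 473 in r1 and 457 and 406 in r2, so that its groups did not overlap. It missed the threshold in the fit with r3 (limma adjusted p = 0.276), where its r3 arrays differed from each other by 5.01 on the log2 scale.

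The midbrain showed no called difference. Set against r1, r2, r4 and r5, 0 members were called in either direction, beside 1.12% of all genes higher and 1.54% lower in m, while 6 members had an unadjusted p under 0.05 in limma (9.38%), beside 15.6% of all genes. The median log2 fold change of the members was −0.08, against 0.05 over all genes. The largest value was that of PRPF19, at 1.02 ± 0.25 (limma adjusted p = 0.0599). In the fit without both r3 arrays, PRPF19 (1.02), SNRPA1 (0.83), HNRNPDL (0.74) and LSM4 (0.64) were called higher in m, beside 5.60% of all genes, and SNRPD3, a subunit of the Sm ring, was called lower (−0.46), beside 3.80%.

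The r3 arrays held the widest differences of the members, in both directions. Set against the mean of the other 5 regions, 10 members were higher in r3 (15.6%), beside 7.70% of all genes, and 26 were lower (40.6%), beside 45.3%. The F test over the 6 regions called 26 members (40.6%), beside 41.4%. The members' median log2 fold change was −0.55, close to the −0.65 of all genes, and 36 members lay above that median. After quantile normalisation 29 members lay above the median gene and 35 below it. Both r3 arrays were above all others for 10 members, beside 6.17% of all genes, and below all others for 22, beside 34.6%, and for 32 members they overlapped the range of the other regions. Without scaling, where the median of all genes was −1.58, the calls were 0 higher and 46 lower, with no share over all genes given. Relative to the median gene, the 10 higher members stayed above it without scaling, and 9 of them did after quantile normalisation, where SRSF1 fell below it. Of the 26 lower members, 22 lay below the median gene, so that 4 fell by less than the typical gene. After quantile normalisation 22 of the 26 kept their negative sign, and LSM5 (0.05), PRPF3 (0.12), PRPF38A (0.14) and SF3B5 (0.03) did not. With the 3′ to 5′ ratio as a covariate, limma called 0 members in r3, and of the 36 fold changes 14 changed sign and 9 stayed within 1.5 times, with a median standard error of 0.878 against 0.197 without it.

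**Figure D3:**
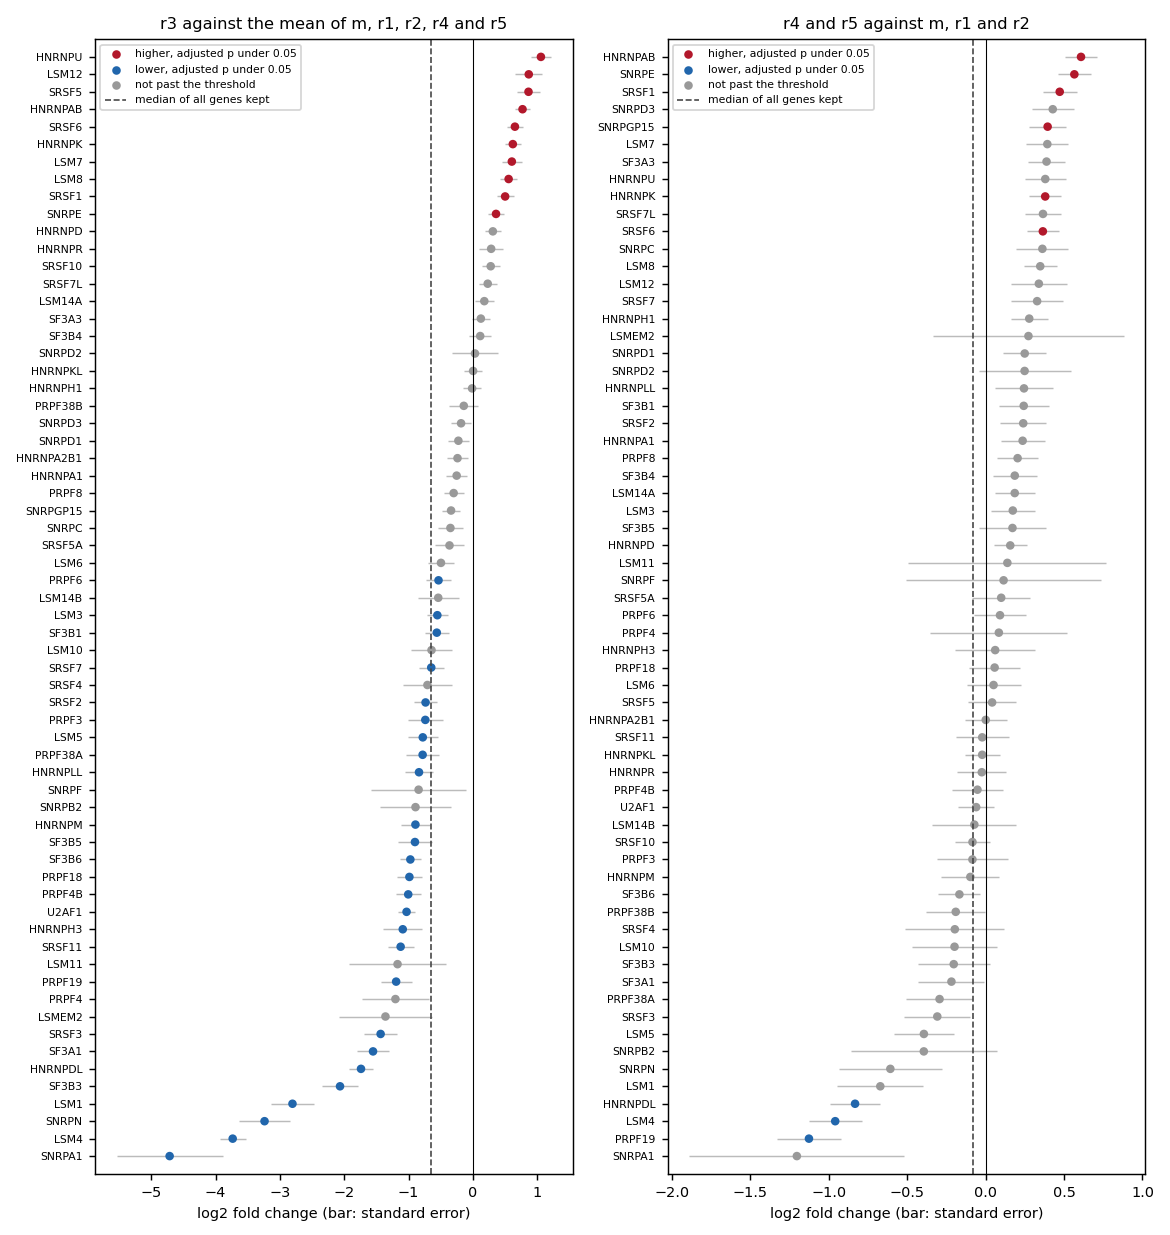
Log2 fold change of the 64 members (points, bars are standard errors) in r3 against the mean of the other 5 regions (left) and in r4 and r5 against m, r1 and r2 (right), with the median of all 9940 genes as a dashed line. In r3 the members run from −4.71 (SNRPA1) to 1.05 (HNRNPU) and 10 are called higher and 26 lower, while in r4 and r5 they run from −1.20 to 0.61, with 6 and 3 calls under median scaling, which become 0 higher and 46 and 16 lower without scaling. At that setting the median of all genes is −1.58 in r3 and −0.80 in r4 and r5, and shares over all genes are not given.

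The 2 pools of r3 were also the least alike. The median difference between set 1 and set 2 over the members was 0.50 on the log2 scale in r3, against 0.28 in r4, 0.15 in r5, 0.12 in m, 0.20 in r1 and 0.12 in r2. Over all genes the medians were larger in each region, at 0.65 in r3, 0.40 in r4, 0.28 in r5, 0.18 in m, 0.22 in r1 and 0.21 in r2. The difference was above 1 for 14 members in r3, a count without a share over all genes. Leaving out r3 set 1, which has the lower median signal and the higher 3′ to 5′ ratio, reduced the members called lower to 15, and leaving out r3 set 2 gave 35. In these fits the lone r3 array is assumed to vary like the other regions, which supply the spread. Shares over all genes are not given for them. HNRNPH3, HNRNPLL, HNRNPM, LSM3, LSM5, PRPF38A, SF3B5, SRSF2 and SRSF7 lost their lower call, and LSM7 its higher call, only without r3 set 1. PRPF3, PRPF6, SF3B1 and SNRPE lost theirs under 5 to 10 of the omissions, r3 set 1 among them.

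Of the 11 SR genes, 3 were higher (27.3%) and 4 lower (36.4%) in r3, where 7.70% and 45.3% of all genes were called. SRSF5, a regulator of exon inclusion, had signals of 1381 and 871 in r3, against 470.3 to 762 on the 10 arrays of the other regions. SRSF6 had 2477 and 2914 in r3, against 1409 to 2155, and SRSF1 had 3343 and 3896, against 2078 to 3314. The r3 arrays of these genes lay above all others, at 0.86 ± 0.18 (limma adjusted p = 0.00231) for SRSF5, 0.65 ± 0.12 (limma adjusted p = 0.00107) for SRSF6 and 0.50 ± 0.13 (limma adjusted p = 0.0082) for SRSF1, and each sign turned without scaling (−0.10, −0.31 and −0.46), that of SRSF1 also after quantile normalisation (−0.14). SRSF3, the smallest SR protein and an adaptor for mRNA export, was lower, with 227 and 553 in r3, against 736 to 1161 elsewhere (−1.44 ± 0.25, limma adjusted p = 0.000678). SRSF11 (−1.12), SRSF2 (−0.74) and SRSF7 (−0.65) were lower too. SRSF5A had the smallest F of the SR genes over 6 regions, with r3 arrays far apart at 523 and 1109, and 874 to 1292 elsewhere. It was not called by its brightest probe set, but 1 of its 3 kept probe sets was called lower.

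Of the 13 hnRNP genes, 3 were higher (23.1%) and 4 lower (30.8%), beside the same 7.70% and 45.3%. HNRNPU, which also binds chromatin as scaffold attachment factor A, had 1979 and 1297 in r3, against 630.5 to 985 elsewhere. This was the largest increase among the members by their brightest probe sets (1.05 ± 0.16, limma adjusted p = 0.000206). HNRNPU was also the one called member that kept its positive sign without scaling (0.09). Of its 3 kept probe sets 2 were called higher, but the lowest gave −0.40, and the mean over them gave 0.41. HNRNPAB had 2797 and 2523, against 1207 to 2359 (0.77 ± 0.12, limma adjusted p = 0.000314), and HNRNPK 1648 and 1536, against 846 to 1304 (0.62 ± 0.12, limma adjusted p = 0.00134), and without scaling these values were −0.19 and −0.34. In HNRNPDL the r3 arrays, at 192 and 144, lay below the 272 to 842 of the others (−1.74 ± 0.19, limma adjusted p = 3.35e-05). HNRNPH3 (−1.09), HNRNPM (−0.90) and HNRNPLL (−0.84), the last known in mammalian lymphocytes for its part in the splicing of CD45, were lower, with HNRNPH3 at 301 in r3 set 1 but 1017 in r3 set 2. HNRNPKL, listed in RefSeq with the synonym HNRNPK, was level by its brightest probe set, with 539 and 591 in r3, against 493 to 611 (0.00 ± 0.13, limma adjusted p = 0.995). Its 4 kept probe sets ran from −1.12 to 0.84, with 2 called higher and 1 lower.

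The lowest value of all members was that of an snRNP protein, SNRPA1, and LSM4, SNRPN and LSM1 came next. Of the 7 Sm ring genes, whose median was −0.23, SNRPE was higher (0.36 ± 0.12, limma adjusted p = 0.0323), with 1741 and 1463 in r3 and 970.3 to 1712 elsewhere, a sign that turned without scaling (−0.60). SNRPN, which RefSeq lists with the synonym SNRPB, the gene of the ring subunit SmB, was lower, with 26.6 and 124 in r3, against 275 to 725 (−3.24 ± 0.39, limma adjusted p = 5.93e-05). The remaining 5, among them SNRPD2 with a dim signal of 11.2 to 27.3 on all arrays, were not called by their brightest probe sets. The other kept probe set of SNRPD3 (−1.27) and 2 of the 4 of SNRPGP15 were called lower. None of the 11 genes of the U1 and U2 snRNPs and of 3′ splice site recognition was higher in r3, and 7 were lower (63.6%, beside 45.3% of all genes).

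SNRPA1 had the largest decrease of all members, with 2.35 and 75.4 in r3, against 131 to 592 elsewhere (−4.71 ± 0.82, limma adjusted p = 0.000638). Both r3 arrays lay below all others, but the size rests on r3 set 1, and the value was −2.21 without that array. It rests on the probe set too. Of its 3 kept probe sets another gave −0.07, and the mean over them gave −1.87. SF3B3 and SF3A1, subunits of the U2 complexes that settle on the branch point, had 144 and 378 in r3, against 654 to 1083 (−2.07 ± 0.28, limma adjusted p = 0.000106), and 91.2 and 218, against 321 to 509 (−1.55 ± 0.25, limma adjusted p = 0.000402). SF3B6, which contacts the branch point adenosine, had 205 and 190.4 in r3, against 300.2 to 466 (−0.97 ± 0.16, limma adjusted p = 0.000452), and U2AF1, the subunit that reads the AG at the end of the intron, had 641 and 808, against 1295 to 1663 (−1.03 ± 0.14, limma adjusted p = 0.000102). SF3B5 (−0.90, but 0.03 after quantile normalisation) and SF3B1 (−0.56) were also lower. By their other kept probe set, SF3A1 was at 0.38 and U2AF1 at −0.11. SF3A3 (0.12) and SF3B4 (0.11) were not called by their brightest probe sets, with r3 arrays inside the range of the other regions. Of the 5 kept probe sets of SF3A3, however, 2 were called lower, and the lowest was at −1.68.

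**Figure D4:**
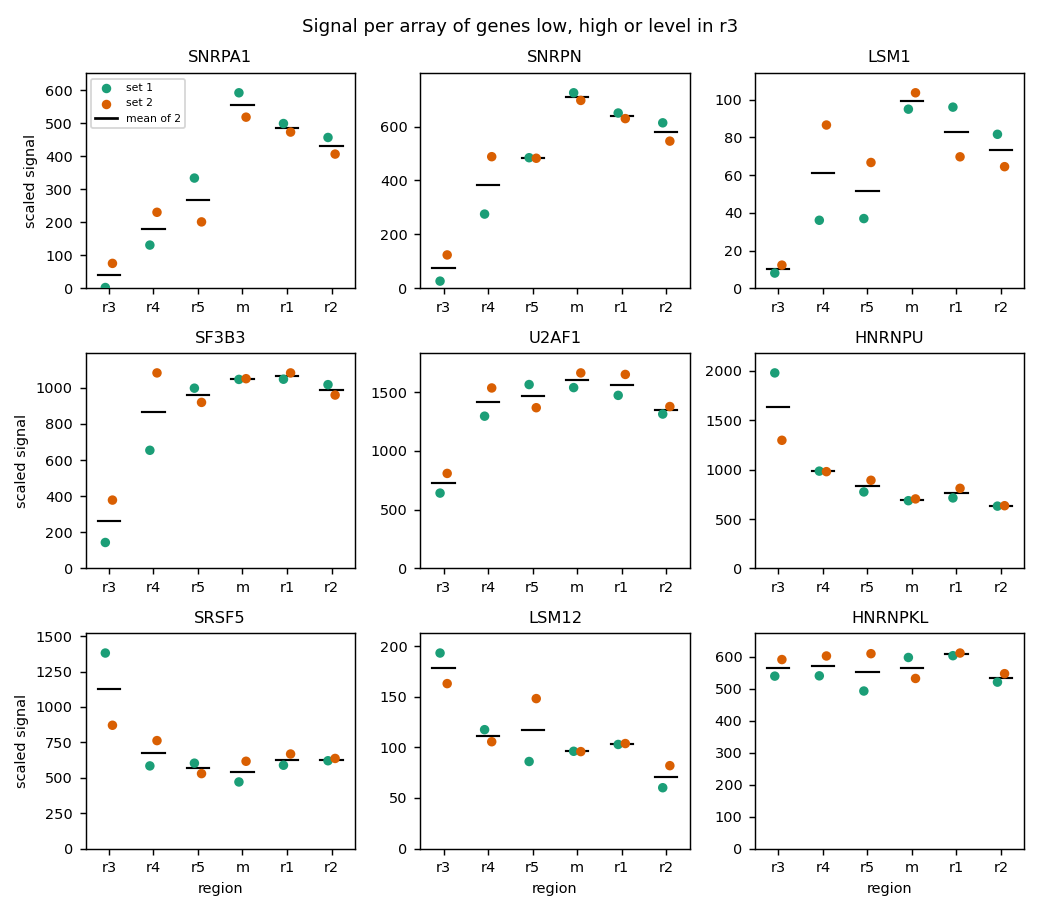
Scaled signal (vertical axis, linear, from 0) by region of 9 members that were low, high or level in r3, with 1 point per array and a bar at the mean of the 2. The r3 points of SNRPA1, SNRPN, LSM1, SF3B3 and U2AF1 lie below and those of HNRNPU, SRSF5 and LSM12 above all other arrays, while those of HNRNPKL lie among them. Without scaling SRSF5 and LSM12 change sign. Each gene is shown by its brightest probe set, and the kept probe sets of SRSF5 and HNRNPKL had calls in both directions.

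Of the 9 PRPF genes, 0 were higher and 6 lower (66.7%, beside 45.3% of all genes). PRPF19 had 105 and 87.6 in r3, against 85.8 to 463 elsewhere, and so overlapped r4 (−1.20 ± 0.24, limma adjusted p = 0.00169). PRPF4B, a kinase of spliceosome proteins, had 94.8 and 163 in r3, against 224 to 286 (−1.01 ± 0.20, limma adjusted p = 0.00135), and PRPF18, which acts in the second step of splicing, had 28.6 and 26.9, against 48.9 to 62.6 (−0.99). PRPF38A (−0.78), PRPF3 (−0.74) and PRPF6 (−0.54) were lower as well, though the first and second of these were slightly positive after quantile normalisation. At that setting PRPF19 (−0.42), PRPF4B (−0.24), PRPF18 (−0.06) and PRPF6 (−0.00096) stayed negative, but all 6 lost their calls. PRPF8, at the heart of the catalytic centre, was not called (−0.30), nor were PRPF4 (−1.21), with signals of 2.34 to 17.0, and PRPF38B (−0.14). The other kept probe set of PRPF8 was called lower, at −1.92.

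Of the 12 LSM genes, 3 were higher (25%) and 4 lower (33.3%, beside 45.3% of all genes). By their brightest probe sets, members of the same ring moved in opposite directions in the median-scaled data. LSM4 had 25.9 and 19.6 in r3, against 127 to 453 elsewhere (−3.74 ± 0.20, limma adjusted p = 1.08e-06), the smallest p of the members. LSM3 (−0.55) and LSM5 (−0.78, but 0.05 after quantile normalisation), which belong to the same rings, were lower. LSM7, another shared subunit, had 448 and 323, against 203 to 339.8 (0.60 ± 0.16, limma adjusted p = 0.0085). Its sign turned without scaling (−0.36) and by the mean over its kept probe sets (−0.57), and another kept probe set was called lower (−2.14). LSM1, the subunit particular to the cytoplasmic ring, had 8.07 and 12.3 in r3, against 36.1 to 104 (−2.81 ± 0.33, limma adjusted p = 4.67e-05). LSM8, the subunit particular to the nuclear U6 ring, had 446 and 427, against 251 to 382 (0.55 ± 0.13, limma adjusted p = 0.00382), and was −0.41 without scaling and −0.21 by the mean over its kept probe sets. LSM12, which lies outside both rings, had 193 and 163 in r3, against 60.1 to 148 (0.87 ± 0.21, limma adjusted p = 0.00534), and −0.09 without scaling. LSM11, a subunit of the U7 snRNP of histone mRNA processing, was dim and scattered, with 0.234 and 11.9 in r3 and 3.62 to 14.6 elsewhere.

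The contrast of r3 with the rest and that of r4 and r5 with m, r1 and r2 share their arrays outside r3, so their calls are not independent. Side by side, HNRNPAB was at 0.77 in r3 and 0.61 in r4 and r5, HNRNPK at 0.62 and 0.38, SRSF6 at 0.65 and 0.37, SRSF1 at 0.50 and 0.47, and SNRPE at 0.36 and 0.57, all with the signs of the scaled data. By the mean over kept probe sets, HNRNPAB (0.10) and SNRPE (0.03) lost their calls in r3. HNRNPK (0.62), SRSF1 (0.50) and SRSF6 (1.11) kept theirs. After quantile normalisation SRSF1 alone of these genes was negative in r3 (−0.14). For the lower members the values were −3.74 in r3 and −0.96 in r4 and r5 for LSM4, −1.74 and −0.83 for HNRNPDL, and −1.20 and −1.12 for PRPF19.

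Whether a gene reads higher or lower in r3 depended on which of its probe sets was read. The array held 166 probe sets with a member's symbol, of which 140 passed the filter, and 37 members had 2 or more of these. For 9 of the 37 members (24.3%), 1 probe set was called higher and another lower in r3, beside 9.16% of the 4356 genes with 2 or more kept probe sets, although the members had more probe sets each (3.05 on average, against 2.55). These members were HNRNPA1, HNRNPAB, HNRNPH3, HNRNPKL, HNRNPLL, HNRNPM, LSM7, PRPF4B and SRSF5, and for 20 members the probe sets had both signs, called or not. The median range between probe sets of a member was 1.62 on the log2 scale in r3, against 1.41 over all such genes, and 0.61 in r4 and r5. Of the 76 kept probe sets that were not the brightest of their gene, 12 were higher and 29 lower in r3, and 0 were higher and 9 lower in r4 and r5. The share among such probe sets of all genes is not given.

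**Figure D5:**
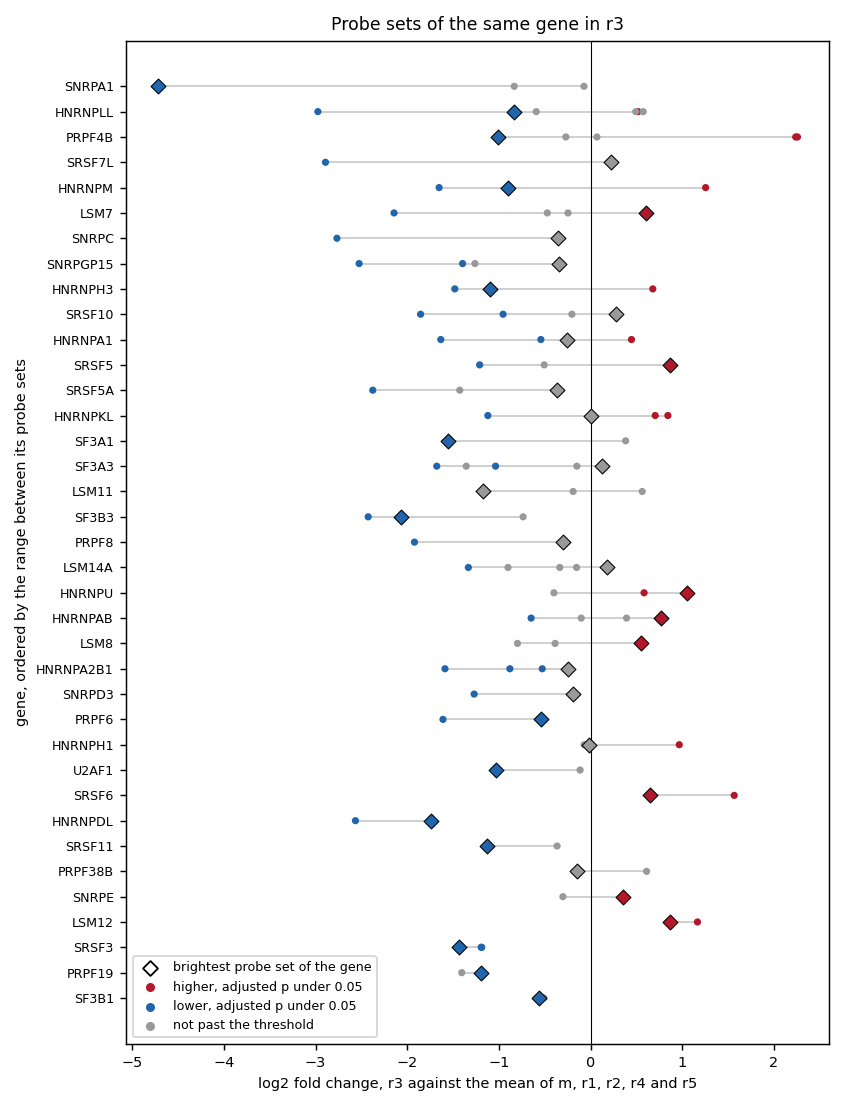
Log2 fold change in r3 against the mean of the other 5 regions for each kept probe set (points) of the 37 members with 2 or more, ordered by the range within a gene. Diamonds mark the brightest probe set, which is the value given for the gene, and colours the calls in the median-scaled data. PRPF4B, HNRNPM, LSM7 and SRSF5 have called probe sets on both sides of 0.

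For HNRNPM the brightest probe set had signals of 455 and 1025 in r3, against 1083 to 1472 elsewhere, a log2 fold change of −0.90. A second one had 1543 and 946 in r3, against 408 to 668, a log2 fold change of 1.26, and one more gave −1.65. PRPF4B differed likewise: its brightest probe set gave −1.01, and a pair of others, each with r3 arrays above all the rest, gave 2.24 and 2.26. The last of these came from 361 and 138 in r3, against 37.0 to 81.0 elsewhere. LSM7 was at 0.60 by the brightest probe set and at −2.14 by another, and SRSF5 was at 0.86 and −1.21. SRSF6 and HNRNPDL were 2 of the members whose kept probe sets were all called the same way, at 0.65 and 1.57 for SRSF6 and at −1.74 and −2.56 for HNRNPDL. With the mean over the kept probe sets of a gene, r3 had 6 members higher, and LSM7 (−0.57), LSM8 (−0.21), SRSF5 (−0.28) and PRPF4B (0.66) changed sign. Where the probes of a set lie along the transcript was not analysed here.

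Genes of the same pathways outside these names were taken from 7 lists with 172 symbols, of which 131 were named and kept. Under median scaling, 19 were higher (14.5%, beside 7.70% of all genes) and 70 lower (53.4%, beside 45.3%) in r3, with a median of −0.62 that lay close to the −0.65 of all genes. In r4 and r5 5 were higher (3.82%, beside 6.43%) and 15 lower (11.5%, beside 7.89%), and in m 2 were higher (1.53%, beside 1.12%) and 1 lower (0.763%, beside 1.54%). The shares in r3 for single lists are to be read beside the same 7.70% and 45.3%. The list for the U1, U2 and tri-snRNP had 23 genes and also holds proteins of other snRNPs (SNRNP25, SNRNP35 and SNRNP48). Of these 23, 3 were higher and 13 lower in r3, the latter with EFTUD2, the GTPase of the U5 snRNP (−3.39 ± 0.35, limma adjusted p = 2.04e-05). Of 20 proteins of the PRPF19 complex and the catalytic and release steps, 0 were higher and 12 lower, and of 13 proteins that assemble snRNPs, 0 and 9. Of 16 SR-like proteins and kinases 4 were higher and 8 lower, of 20 further hnRNP-like proteins 4 and 7, and of 23 neural and tissue-specific regulators 5 and 10. Of 16 exon junction and export proteins, 3 were higher and 11 lower, with THOC3 of the export complex TREX at −3.42 in r3 and −1.90 in r4 and r5, and at 1.43 in m. In m, ESRP2, an epithelial splicing regulator, was also higher (1.43 ± 0.29, limma adjusted p = 0.0255), and RBM24 was lower (−1.04 ± 0.15, limma adjusted p = 0.00348). SMG1, the kinase of nonsense-mediated decay, was lower in r4 and r5, at −1.57, with 4.03 to 13.1 there and 18.3 to 33.6 in m, r1 and r2.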

How the data were processed

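The authors amplified cDNA from pooled tissue, hybridised 12 Affymetrix Chicken GeneChips and deposited a MAS5 signal, a linear intensity, for each of 38535 probe sets. The submitters' processing notes name MAS5 with no version. Array medians differed as deposited. To bring signals to a common level, they were divided by the array's median over 38439 probe sets other than controls, and the mean of these medians (5.90) was used as the new median. A floor was set at the 20th percentile of all scaled values (1.03) before taking log2. A probe set was kept where both arrays of some region exceeded their array's median, which left 21731. Folds near the floor are understated. The number of arrays limits the precision, and no 2 arrays shared more than 2 identical values.

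Regions were compared over all probe sets kept with limma 3.58.1 (R 4.3.3; 6 region means, intensity trend, 6 residual and 6.00 prior degrees of freedom). Figures used matplotlib 3.10.9 in Python 3.11.15. Scripts were tested on simulated data. The members, pathway lists, roles and contrasts were chosen with earlier results of these data known. Members named are the 6 highest and 6 lowest among those called in each contrast, for each name family the 2 with the largest and the 1 with the smallest F, the 4 with the largest F over 5 regions, and those whose probe sets had opposite calls; others were named after their values were seen. All 64 members were found in RefSeq. Set numbers were not used as pairs, and sequences were not analysed here.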

Additional observations from a re-analysis of the deposited data

How the results depend on the processing

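Counts of called members kept within 1.5 times of their value in 41 checks and moved further in 37, leaving single arrays out aside. Shares over all genes or probe sets are given only for the covariate here and, above, for the fit without both r3 arrays. The other counts below therefore do not set the members apart from the whole array. Quantile normalisation gave 2 members higher in m and 5 lower in r4 and r5. Without scaling, 3 members were called by the F test over 5 regions, 0 higher and 46 lower in r3, and 0 higher and 16 lower in r4 and r5. Without the filter, the F tests called 16 (6 regions) and 0 (5 regions), with 2 higher in r4 and r5, and without the intensity trend 10, 0 and 2. Array weights, which give the r3 arrays 0.228 each, gave 10 by the F test over 5 regions, 4 higher and 16 lower in r3, 5 higher and 3 lower in m, and 13 higher and 6 lower in r4 and r5. The mean over probe sets gave 2 over 5 regions, 6 higher in r3, and 2 higher and 5 lower in r4 and r5. With the 3′ to 5′ ratio as a covariate, limma called 0 members by either F test and 0 in either direction in r3 and in r4 and r5 (unadjusted p under 0.05 for 3 and 2 by the F tests, 0 and 2 in r3, and 1 and 1 in r4 and r5), and at most 1.98% of all probe sets, so that r3 and this ratio cannot be told apart. Without both r3 arrays, the calls were 15 over 5 regions, 4 higher and 1 lower in m, and 13 higher and 6 lower in r4 and r5. The methods' one-way ANOVA with Benjamini-Hochberg adjustment called 15 over 6 regions. The cause of these changes was not tested.

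The set number as a replicate block left 3 (HNRNPAB, LSM4 and PRPF19) called by the F test over 5 regions and moved no other count by over 1.5 times. Deviations of same-numbered arrays correlated at −0.04 to 0.07, above 0.1 in 0 of 15 pairs of regions. These values show no strong shared effect of the set number, but cannot show whether same-numbered pools were collected together. Leaving out 1 array gave 18 to 42 members by the F test over 6 regions, 0 to 15 over 5 regions, 9 to 11 higher and 15 to 35 lower in r3, 0 to 4 higher and 0 to 2 lower in m, and 2 to 14 higher and 3 to 7 lower in r4 and r5, the highest of these mostly without an r3 array.

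Called members that changed sign in r3 without scaling were HNRNPAB (−0.19), HNRNPK (−0.34), LSM12 (−0.094), LSM7 (−0.36), LSM8 (−0.41), SNRPE (−0.60), SRSF1 (−0.46), SRSF5 (−0.099) and SRSF6 (−0.31), and in r4 and r5 HNRNPAB (−0.12), HNRNPK (−0.34), SNRPE (−0.16), SNRPGP15 (−0.33), SRSF1 (−0.25) and SRSF6 (−0.36). With the covariate, HNRNPH3 (0.79), HNRNPLL (0.33), HNRNPM (0.28), LSM1 (0.66), LSM3 (0.21), PRPF3 (1.29), SF3B5 (0.66), SNRPA1 (1.13), SNRPN (0.21), SRSF11 (0.105), SRSF2 (0.082), SRSF3 (0.089), SRSF5 (−0.25) and SRSF7 (0.073) did so in r3, while LSM4 (−3.56), U2AF1 (−0.95) and SRSF1 (0.48) were among the 9 of 36 that stayed within 1.5 times, as did 8 of 9 in r4 and r5. With the mean over probe sets it was LSM7 (−0.57), LSM8 (−0.21), PRPF4B (0.66) and SRSF5 (−0.28) in r3 and SNRPGP15 (−0.59) in r4 and r5, and with quantile normalisation SRSF1 (−0.14), LSM5 (0.05), PRPF3 (0.12), PRPF38A (0.14) and SF3B5 (0.03) in r3. Of the other checks on members named by the rule, 222 kept the sign and the call and 57 lost the call.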
